A study of Mus musculus with 468 samples.

Results

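The 8 genes described here belong to retinoid metabolism and were followed across the adipose transcriptomes of Diversity Outbred mice, an outbred stock that segregates the genomes of 8 founder strains. The 8 members, out of 23180 genes in the count table, were taken by symbol: Aldh1a1, Aldh1a2, Aldh1a3, Rarb, Dhrs3, Rdh10, Rbp7 and Cyp26b1. The adult mice, of both sexes and several generations per the methods of the study, were all fed a high-fat, high-sugar (HFHS) diet (45 percent fat), and each gave a single bulk library from the gonadal fat pad, so that the libraries form 1 group with no untreated counterpart and no repeat library. The study mapped gene expression and its co-variation in this population. The median library held 82.04 M counts (M standing for 1000000), the smallest 35.3 M and the largest 137.8 M.

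Retinol reaches a tissue from the circulation or from stored retinyl esters. Retinol dehydrogenases such as Rdh10 oxidise it to retinaldehyde, and retinaldehyde reductases such as Dhrs3 return it to retinol. The retinaldehyde dehydrogenases Aldh1a1, Aldh1a2 and Aldh1a3 make the irreversible step to retinoic acid, the ligand of nuclear receptors that include Rarb. Cyp26b1 hydroxylates retinoic acid for clearance, and Rbp7 is a cellular retinol-binding protein of fat. In white fat, retinoids are known to act on adipocyte differentiation and on lipid metabolism, and Rarb is a textbook target of the receptors themselves.

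A site of the classical retinoic acid response type is shown for Rarb because, of the members, it alone carried one in the upstream sequence searched. The search used the 6-base half-site AGGTCA together with its variants AGTTCA, also written with a leading G as GGGTCA and, for the other variant, GGTTCA, in pairs of the same orientation, on both strands of the 250 bases before each RefSeq transcription start (GRCm38.p6). Pairs 5 bases apart were found in 29 of 32851 upstream windows (0.0883%), and among the 9 windows of 6 members in 1, which lies on the minus strand of chr14:16575507-16575535 with its half-sites from base -53 to base -37 relative to the start. The capitals mark the half-sites.
Rarb: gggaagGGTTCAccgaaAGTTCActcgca
The site is inside the GENCODE span of Rarb, in bases that this annotation gives as exonic. Among the 46 other retinoid genes listed for this comparison, Cyp26a1, another retinoic acid hydroxylase, held such a pair. Pairs 1 base apart (0.164% of all windows) and 2 bases apart (0.174%) were in no member window, and a single half-site, present in 38.6% of all windows, was in windows of Aldh1a1 and Rarb. These pairs are matches of letters, and neither Aldh1a3 nor Rdh10 had an upstream window to search.

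The tissue label was checked against marker genes. All 10 adipocyte, 10 endothelial, 10 progenitor, 14 mesothelial, 8 macrophage and 6 pericyte and smooth muscle markers were above 0 in every library, and the adipocyte markers summed to 9166 to 34992 CPM (counts per 1000000, with TMM library sizes) with a median of 23496. Counts of 4 Y chromosome genes split the libraries into 51.5% with and 48.5% without such counts, called with-Y and without-Y libraries here. The labels used here give no sex, and correlations were therefore read within each of the 2 sets; levels were not compared between them. Transcripts of other tissues were high in some libraries, and 1 stood apart: in mouse DO283, which is a with-Y library with the lowest total (35.3 M), markers of seminal vesicle and prostate took 21.4% of all counts. Correlations of members that rest on this library are given with and without it where both were computed. In bulk tissue, fewer cells of a type and less RNA per cell cannot be told apart.

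All 8 genes passed the filter of 10 counts in at least 50% of libraries, and the lowest single count of any was 91, for Cyp26b1. Levels below are in CPM, as mean ± SD over all libraries. Among the enzymes that set retinaldehyde, Dhrs3 (chr4:144892827-144928209, GRCm38) was high at 184.6 ± 37.2 CPM, with a lowest value of 82.04, a median of 185.4 and a highest of 276.97 CPM. Rdh10 (chr1:16105774-16133734) was low at 10.44 ± 2.266 CPM, with a range of 6.49 to 40.76 and a median of 10.12 CPM. Both extremes of this pair fell in the same animal, since mouse DO283 had the highest Rdh10 and the lowest Dhrs3. These were the members with the smallest spread: their SD of log2 CPM was 0.31 for Dhrs3 and 0.25 for Rdh10, at the 34.7th and 25.9th percentile of all genes past the filter.

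The 3 genes that make retinoic acid differed in level. Aldh1a1 (chr19:20492715-20643465) had 141.5 ± 60.06 CPM, from 30.87 through a median of 134.9 to 629.9. Aldh1a2 (chr9:71215789-71296243) had 10.52 ± 5.006 CPM, from 2.139 through 9.85 to 48.84. Aldh1a3 (chr7:66390890-66427517) had 17.93 ± 11.31 CPM, from 3.183 through 14.99 to 83.74. Per kilobase of exon, Aldh1a1 made up 76.2% ± 7.51 (SD over all libraries) of the 3 together, with a range over libraries of 46.9% to 89.8%. Aldh1a2 made up 13.4% ± 5.95 and Aldh1a3 10.4% ± 5.24, and their largest shares in any library were 47.2% and 38.4%. The libraries with the highest Aldh1a1 and Aldh1a2 were in part those with transcripts of other tissues. Mice DO069 and DO032, which ranked first and second for Aldh1a1 and are among the 3 highest for Aldh1a2, held 483.6 and 338.1 CPM of Inha, the inhibin alpha subunit made in the gonads, where the median library had 0.544 CPM.

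Rbp7 (chr4:149449687-149454978) had 105.9 ± 47.64 CPM, from 14.9 through 100.02 to 323.01. The receptor Rarb (chr14:16430839-16819156) had 6.448 ± 2.115 CPM, from 1.835 through 6.306 to 13.64, and the hydroxylase Cyp26b1 (chr6:84571414-84593908) had 10.07 ± 6.823 CPM, from 1.159 through 8.256 to 54.23. The 2 most variable members were Aldh1a3 and Cyp26b1, with coefficients of variation of 63.1% and 67.8% and an SD of log2 CPM of 0.90 and 0.89. Rarb overlaps Top2b, a DNA topoisomerase, and the antisense gene Gm48162 on the other strand, and it shares 2020 exon bases with the 2 together. Top2b had 117.3 ± 11.65 CPM, and its r with Rarb was 0.302 in with-Y and 0.018 in without-Y libraries; whether the counting kept strands apart is not given in the sources used here, so Rarb counts are uncertain by what these genes could share. Aldh1a1 and Aldh1a2 also overlap opposite-strand genes but share no exon bases with them.

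**Figure D1:**
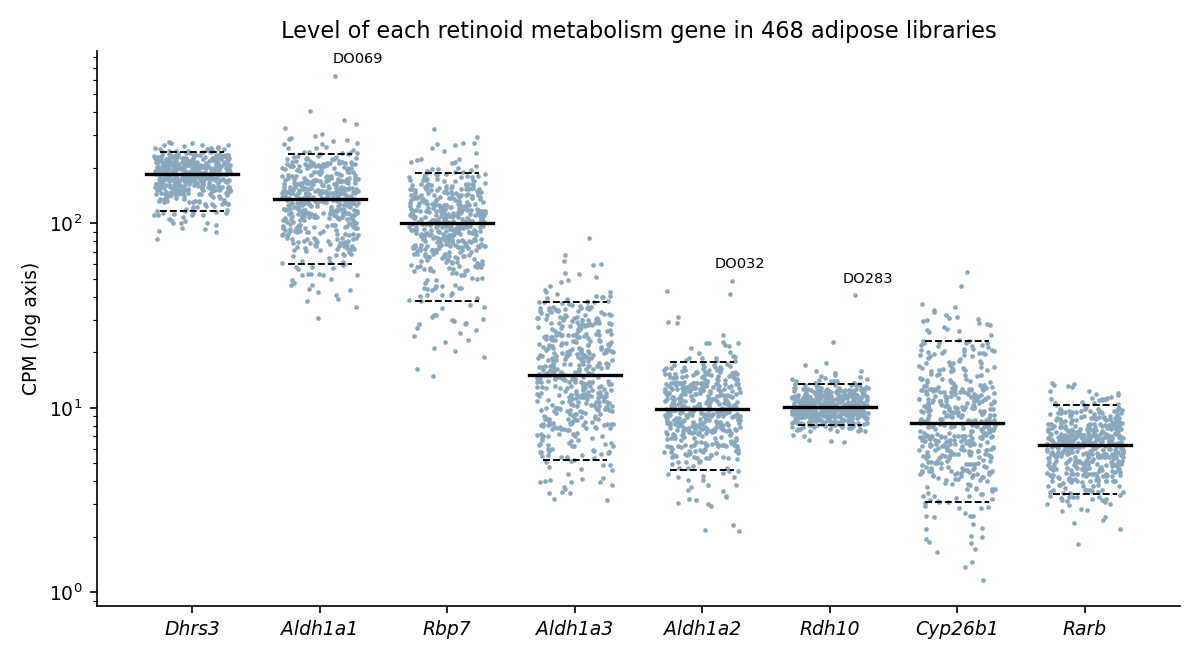
CPM of the 8 genes on a log axis, 1 point per library, with the median as a solid line and the 5th and 95th percentiles as dashed lines. Dhrs3, Aldh1a1 and Rbp7 have medians of 185.4, 134.9 and 100.02 CPM, and the other 5 have medians between 6.306 and 14.99 CPM.

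To set levels side by side, CPM was divided by exon length. On this scale the order was Rbp7 (147.5 ± 66.36 CPM per kb), Dhrs3 (63.07 ± 12.71), Aldh1a1 (28.66 ± 12.17), Aldh1a2 (4.646 ± 2.211), Aldh1a3 (3.883 ± 2.449), Rdh10 (2.51 ± 0.5448), Cyp26b1 (1.881 ± 1.275) and Rarb (1.225 ± 0.4018). The first 4 stood apart from each other in most animals: Rbp7 was above Dhrs3 in 90.6% of libraries, Dhrs3 above Aldh1a1 in 98.5% and Aldh1a1 above Aldh1a2 in 99.8%. The last 5 overlapped, with Aldh1a2 above Aldh1a3 in 61.97% of libraries, Aldh1a3 above Rdh10 in 64.5%, Rdh10 above Cyp26b1 in 77.4% and Cyp26b1 above Rarb in 66.5%.

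Which cells could carry each transcript was approached through 4 source genes: Upk3b for the mesothelium, Pdgfra for adipocyte progenitors, Cdh5 for endothelium and Adipoq for adipocytes. Pearson's r of log2 CPM (prior count 2) was computed for the 32 relations of members with source genes, and for the 28 pairs of members, with two-sided permutation p-values from 100000 resamples whose smallest possible value is 1e-05. Ranges over 5 blocks of consecutive mouse or library numbers, of 93 or 94 libraries each, are given for the leading relations, as the only order that the labels show. The blocks pool with-Y and without-Y libraries and include mouse DO283, so their r is not a value within either set. A raw p below 0.05 was found for 17 of the 32 relations in with-Y libraries and for 19 in without-Y libraries. In both sets, with the same sign, it was found for 9 (7 positive and 2 negative), and with opposite sign for 2. Without mouse DO283 the counts were 7 (6 positive and 1 negative) and 3. The share of all genes with such a p was not computed, so these counts are not read as a trait of the members. In with-Y libraries the 5th and 95th percentiles of r over all genes were -0.287 and 0.301 for Upk3b and -0.328 and 0.407 for Pdgfra. They were -0.339 and 0.367 for Cdh5 and -0.538 and 0.539 for Adipoq. In without-Y libraries those for Adipoq were -0.243 and 0.245, and those for Pdgfra -0.424 and 0.38. Whether r differed between the 2 sets was not tested.

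Aldh1a2 rose with the mesothelial gene in both sets, and in without-Y libraries its r was the highest of the 8 members, while in with-Y libraries Rbp7 (0.286) and Aldh1a1 (0.246) were above it. Its r with Upk3b, a uroplakin of the mesothelial surface, was 0.217 (95% interval 0.094 to 0.335, p = 0.00072) in with-Y libraries and 0.521 (0.419 to 0.61, p = 1e-05) in without-Y libraries. Spearman's rho was 0.196 (permutation p = 0.0025) and 0.608 (permutation p = 1e-05), and without the 2 libraries farthest from the median of Upk3b r was 0.205 and 0.497. In with-Y libraries 0.217 lay at the 88.6th percentile of the r of all genes with Upk3b, and in without-Y libraries 0.521 lay at the 98.5th. With the mean of 14 mesothelial markers in place of the single gene, r was 0.269 and 0.598. Its lowest and highest r in the blocks were 0.167 and 0.409 by library number, and 0.109 and 0.489 by mouse number. Aldh1a2 rose with Pdgfra too, at 0.128 and 0.325, although without mouse DO283 the with-Y value was 0.117 (permutation p = 0.0721). With the list of 10 progenitor markers r was 0.252 and 0.455. Aldh1a2 ran opposite to Cdh5 at -0.168 and -0.227. Its r with Adipoq was -0.32 in with-Y libraries and -0.079 (p = 0.233) in the others. With the list of 10 adipocyte markers it was negative in both sets, at -0.324 and -0.445. With the 8 macrophage markers r was 0.372 and 0.327, above its r with Upk3b in with-Y libraries, and their part in the relation was not tested. In a nearest-gene search its top places over all libraries were Prss23 (r = 0.578), a secreted serine protease, and Aebp1 (0.548), a carboxypeptidase-like protein of the matrix.

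With the single genes Upk3b and Adipoq, Aldh1a1 had a positive r within both sets, although not over all libraries. With Upk3b r was 0.246 (p = 7e-05) and 0.287 (p = 3e-05), where all libraries gave -0.03. With Adipoq it was 0.271 (p = 6e-05) and 0.166 (p = 0.0121), where all libraries gave -0.032. The values with Adipoq lay at the 79.8th and 87.7th percentile of the r of all genes with it. Both relations held in rank form, with rho of 0.28 and 0.316 for Upk3b and of 0.296 and 0.204 for Adipoq. The list of 10 adipocyte markers gave 0.298 in with-Y but -0.175 in without-Y libraries, so the sign in the latter set depended on the choice of Adipoq. Macrophage markers also differed in sign, at -0.306 and 0.457, and their part in these relations was not tested. Against Cdh5, the vascular cadherin, Aldh1a1 gave 0.236 and 0.139. Against Pdgfra the sign turned, from -0.185 (p = 0.00389) in with-Y to 0.254 (p = 0.00013) in without-Y libraries.

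The r of Aldh1a3 with the single gene Adipoq had opposite signs in the 2 sets, whereas with the list of 10 adipocyte markers it was negative in both, at -0.386 and -0.105. With Adipoq it was -0.397 (95% interval -0.498 to -0.285, p = 1e-05) in with-Y and 0.19 (0.062 to 0.313, p = 0.00393) in without-Y libraries. With Upk3b Aldh1a3 gave -0.426 (p = 1e-05), the 0.3rd percentile of all genes, in with-Y libraries and -0.024 (p = 0.717) in the others. With Cdh5 it was -0.078 and 0.347, and without mouse DO283 the with-Y value was -0.145 (permutation p = 0.0246). With Pdgfra it was 0.081 and 0.31, and with the list of 10 progenitor markers 0.303 and 0.359. With 8 macrophage markers Aldh1a3 gave r of 0.43 and 0.367, positive in both sets.

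Rbp7 was positive with the adipocyte gene in both sets and with the endothelial gene in with-Y libraries. Its r with Adipoq, the adipokine adiponectin, was 0.601 (95% interval 0.513 to 0.676, p = 1e-05) in with-Y and 0.23 (0.102 to 0.349, p = 0.00057) in without-Y libraries, with rho of 0.596 and 0.175. The blocks gave 0.267 to 0.662 by library number and 0.391 to 0.52 by mouse number. Its r with Cdh5 was 0.379 (p = 1e-05) and 0.112 (p = 0.0934), and with 10 endothelial markers 0.459 and 0.193. The 5 genes nearest to Rbp7 over all libraries were led by Gpihbp1 (r = 0.637; 0.711 and 0.491 within the sets), which carries lipoprotein lipase across capillary endothelium, and held Btnl9, Gpr4, 4931406P16Rik and Car4. Of these 5, 4 were among the 5 nearest in with-Y and 3 in without-Y libraries. Both sets are part of all libraries, so this overlap is partly built in. The first 5 of the 2 sets shared 2 genes. Macrophage markers ran opposite to Rbp7, at -0.531 and -0.147, and their part in its relation with Adipoq was not tested.

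**Figure D2:**
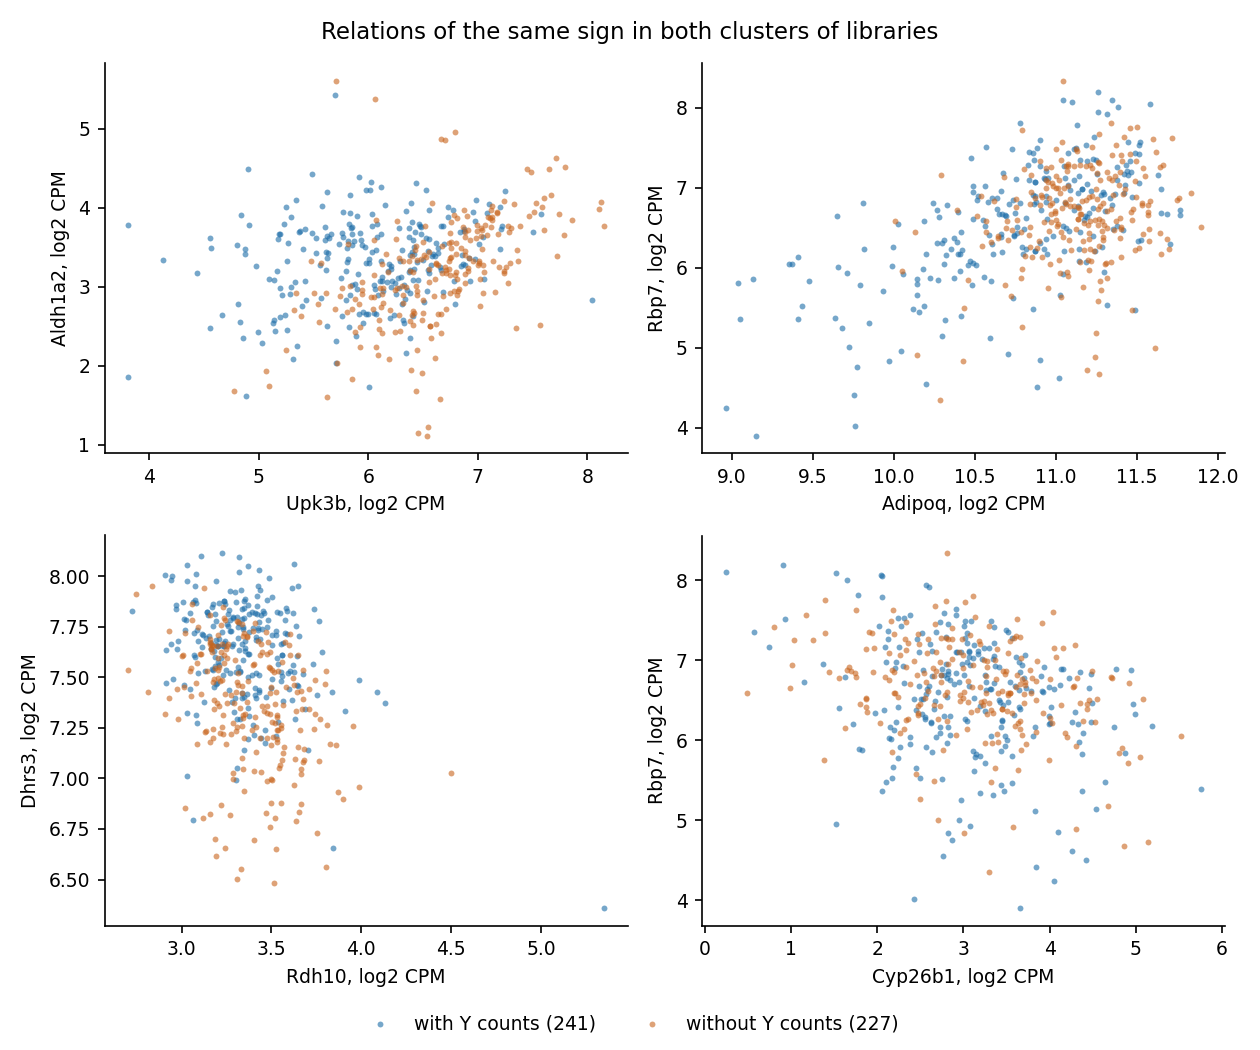
Log2 CPM of 4 pairs of genes, 1 point per library, with the with-Y and without-Y libraries in different colours. Within the sets r is 0.217 and 0.521 for Aldh1a2 with Upk3b, 0.601 and 0.23 for Rbp7 with Adipoq, -0.343 and -0.346 for Dhrs3 with Rdh10, and -0.284 and -0.318 for Rbp7 with Cyp26b1.

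Dhrs3 had a positive r with the endothelial gene Cdh5, of 0.237 (p = 0.00029) in with-Y and 0.44 (p = 1e-05) in without-Y libraries. These values lay at the 86.7th and 97.8th percentile of the r of all genes with Cdh5. Without mouse DO283 the with-Y value was 0.137 (permutation p = 0.0337). With the list of 10 endothelial markers r of Dhrs3 was 0.076 and 0.398, and with that of 10 progenitor markers 0.344 and 0.2. Its r with 8 macrophage markers was 0.488 and 0.387, and their part in the relation was not tested. The genes nearest to Dhrs3 were Lasp1 (r = 0.792; 0.725 and 0.739 within the sets), an actin-binding protein, and Anxa1 (0.765) and Anxa2 (0.762), which bind membranes in a calcium-dependent way. Rdh10 gave -0.215 and -0.258 with Cdh5, but in with-Y libraries this rested on mouse DO283, without which r was -0.049 (permutation p = 0.451). The highest r of Rdh10 with any gene over all libraries was 0.41, for AI480526.

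Rarb and Cyp26b1 were not tied to any of the 4 source genes in both sets. In without-Y libraries Rarb ran opposite to Pdgfra (-0.377, p = 1e-05) and to Upk3b (-0.327, p = 1e-05), where with-Y libraries gave 0.082 (p = 0.204) and 0.047 (p = 0.465). Its nearest genes over all libraries were Armc1 (0.583; 0.413 and 0.714), Mcur1 (0.552; 0.294 and 0.719) and Timm17a (0.545; 0.325 and 0.694), which are all genes of mitochondrial proteins. For Cyp26b1 the 8 values lay between -0.117 and 0.132. Its nearest genes were Tmem88 (0.401; 0.376 and 0.442), Dach1 (0.361) and Emcn (0.348), the last an endothelial sialomucin.

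**Figure D3:**
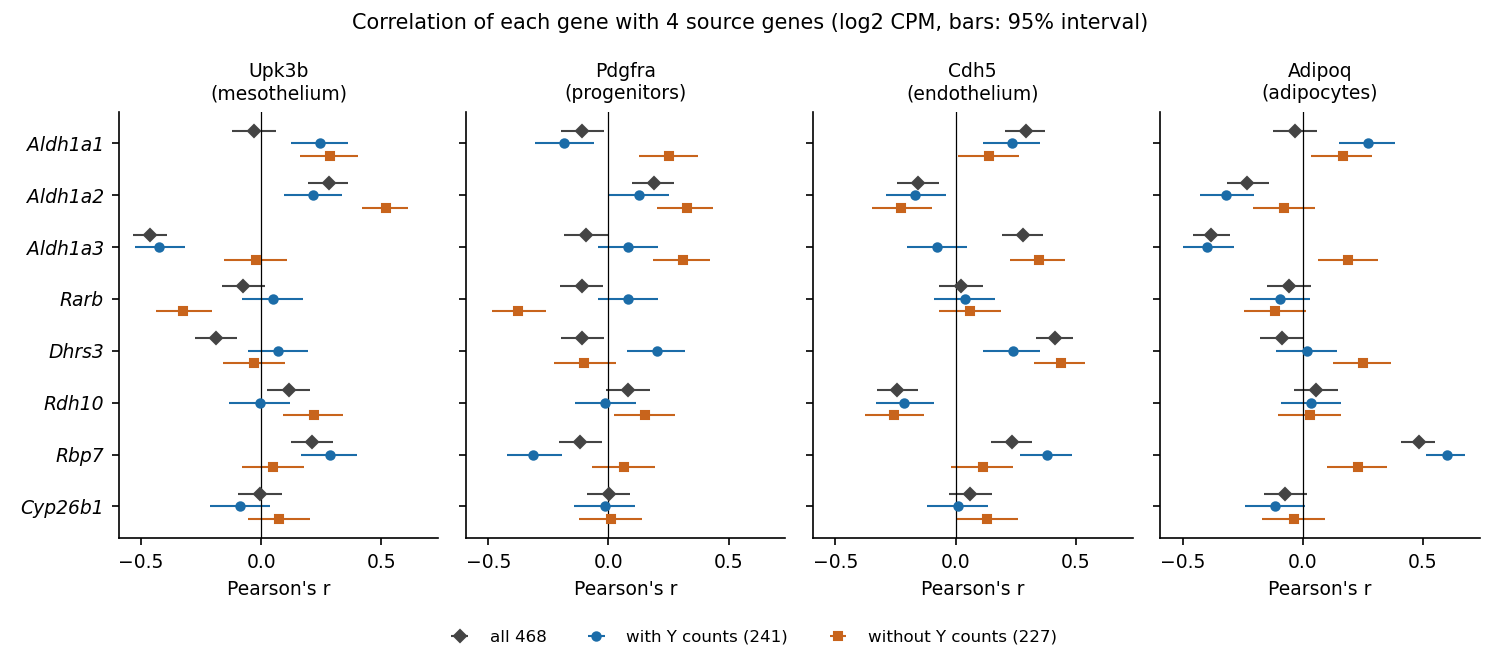
Pearson's r of each of the 8 genes with Upk3b, Pdgfra, Cdh5 and Adipoq, for all, the with-Y and the without-Y libraries, with 95% intervals. Values run from -0.426 to 0.601 in with-Y and from -0.377 to 0.521 in without-Y libraries.

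The same question was put to all genes with the 4 source genes in 1 model, by the quasi-likelihood test of edgeR on 18380 genes past the filter with Benjamini-Hochberg adjustment over all of them. A slope is the change in log2 expression per SD of the source gene's log2 CPM, at fixed levels of the other 3. The counts of members should be read beside the share of all genes called. For Upk3b, 10.03% of genes rose and 15.8% fell, and of the 8 members Aldh1a2 rose (slope 0.26 ± 0.031 SE, adjusted p = 2.338e-13) and Aldh1a3 fell (slope -0.25 ± 0.040, adjusted p = 2.511e-08). Once Xist, the X-inactivation RNA, and Y-linked genes were added as terms, the Aldh1a3 slope was -0.15 and Aldh1a1, which had not been called (0.05 ± 0.032, adjusted p = 0.2628), rose with a slope of 0.10 (adjusted p = 0.002044). Aldh1a1 was called with Upk3b in 3 of 11 alternatives, among them the model without libraries holding transcripts of other tissues (adjusted p = 0.0178). For Pdgfra, 19.99% of genes rose and 32.1% fell, while Rarb was the 1 member called (slope -0.07 ± 0.024, adjusted p = 0.008975). That call was lost with limma (adjusted p = 0.0595) and without the 47 libraries of lowest depth (adjusted p = 0.274).

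For Cdh5, 27.9% of genes rose and 40.1% fell. Aldh1a3 (0.26 ± 0.039, adjusted p = 1.303e-10), Aldh1a1 (0.15 ± 0.031, adjusted p = 3.439e-06) and Dhrs3 (0.14 ± 0.015, adjusted p = 2.331e-18) rose and Rdh10 fell (-0.09 ± 0.012, adjusted p = 2.159e-11) in the edgeR test. With the same terms added the Aldh1a1 slope was 0.05 (adjusted p = 0.0966) and that of Aldh1a3 0.15. For Rdh10 the slope across the 11 alternatives ran from -0.09 to -0.04. Rbp7 was just outside the threshold at 0.06 ± 0.031 (adjusted p = 0.05104 in edgeR), and over 11 alternatives its slope ran from 0.05 to 0.15 and was called in 7, one of them without mouse DO283 (adjusted p = 0.0293).

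For Adipoq, 33.3% of genes rose and 35.7% fell, and 5 of the 8 members were called. Rbp7 rose, with a slope of 0.31 ± 0.034 (adjusted p = 1.18e-16). Aldh1a3 (-0.33 ± 0.039, adjusted p = 1.17e-15), Aldh1a2 (-0.27 ± 0.031, adjusted p = 1.138e-15), Aldh1a1 (-0.09 ± 0.033, adjusted p = 0.008491) and Dhrs3 (-0.06 ± 0.015, adjusted p = 9.661e-05) fell in the edgeR test. The median member slope was -0.08 against -0.004 over all genes tested. With the Xist and Y-linked terms added, the slope of Aldh1a3 was -0.13, that of Dhrs3 was -0.01 (adjusted p = 0.506) and that of Aldh1a1 turned to 0.03 (adjusted p = 0.366). Of the 15 calls made over source genes and order, 8 were called in the same direction under every alternative. These were Aldh1a2 and Aldh1a3 with Upk3b, Aldh1a3, Dhrs3 and Rdh10 with Cdh5, and Aldh1a2, Aldh1a3 and Rbp7 with Adipoq. None of the alternatives was fitted within the with-Y or without-Y set. Aldh1a2 with Upk3b, Dhrs3 with Cdh5 and Rbp7 with Adipoq had a raw p below 0.05 with the same sign in both sets. The r of Aldh1a3 with the single gene Adipoq had opposite signs within the 2 sets. In without-Y libraries r was -0.024 for Aldh1a3 with Upk3b and -0.079 for Aldh1a2 with the single gene Adipoq. In with-Y libraries it was -0.078 for Aldh1a3 with Cdh5, and -0.049 for Rdh10 with Cdh5 without mouse DO283.

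**Figure D4:**
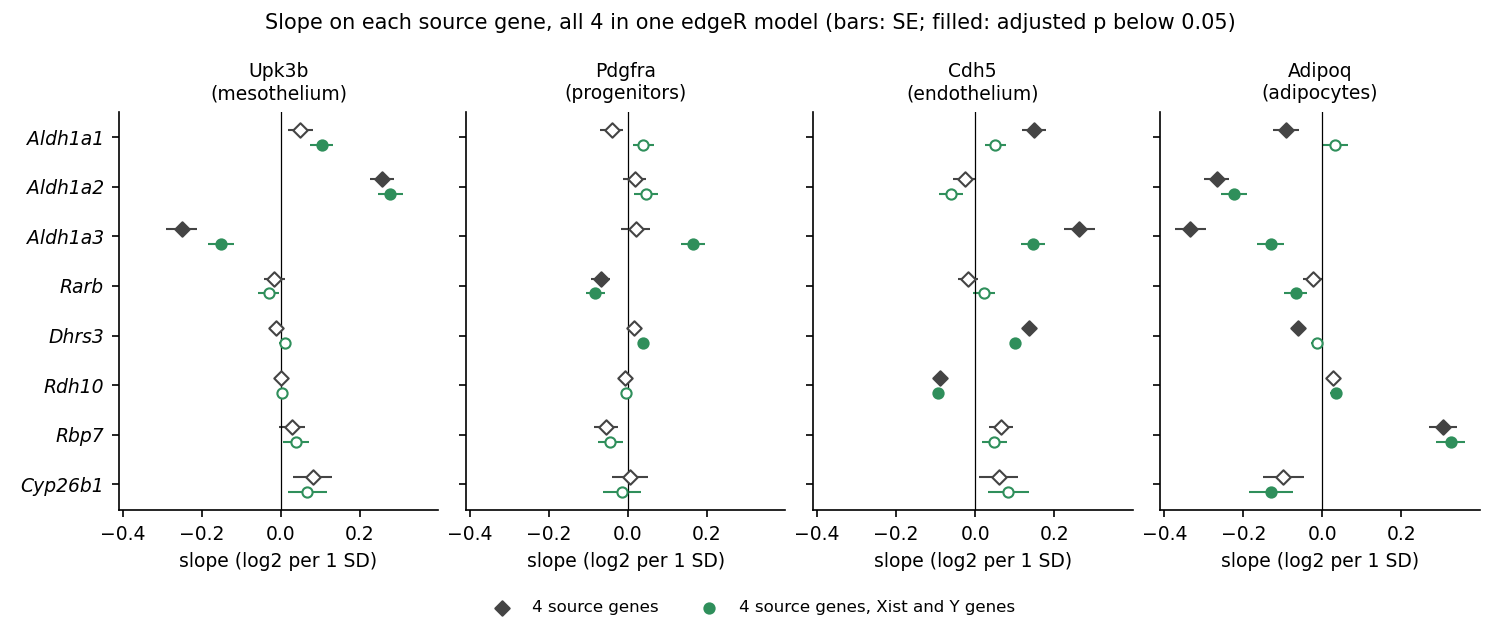
Slopes of the 8 genes per SD of each source gene in 1 edgeR model over all libraries, with bars of 1 SE. Rbp7 with Adipoq (0.31) and Aldh1a2 with Upk3b (0.26) lie highest and Aldh1a3 with Adipoq (-0.33) lowest.

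Between members, 13 of the 28 pairs had a raw p below 0.05 in with-Y libraries and 13 in without-Y libraries, and 5 pairs had it in both with the same sign. Without mouse DO283 these were 4. The share of all pairs of genes with such a p was not computed. In with-Y libraries the 5th and 95th percentiles of r over all genes were -0.189 and 0.224 for Cyp26b1 and -0.457 and 0.458 for Rbp7. They were -0.416 and 0.427 for Dhrs3 and -0.24 and 0.218 for Rdh10. In without-Y libraries those for Dhrs3 were -0.449 and 0.469, and those for Rdh10 -0.289 and 0.264. Dhrs3 and Rdh10, which catalyse opposite reactions between retinol and retinaldehyde, were inversely related, with r of -0.343 (95% interval -0.45 to -0.226, p = 2e-05) and -0.346 (p = 1e-05). Both values lay between these percentiles for Dhrs3 and below the 5th percentile for Rdh10. Mouse DO283 held both extremes, and without it the with-Y value was -0.215 (rho with it -0.199, permutation p = 0.00174). The relation was -0.286 (mouse DO283 included) and -0.293 given the levels of the 4 source genes. Macrophage markers, which are not among those genes, had r of 0.488 and 0.387 with Dhrs3 and of -0.259 and -0.243 with Rdh10, and their part in the relation was not tested. In the blocks it ran from -0.403 to -0.223 by library number and from -0.504 to -0.128 by mouse number.

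Rbp7 and Cyp26b1 were also inversely related, with r of -0.284 (p = 1e-05) and -0.318 (p = 1e-05) and rho of -0.234 and -0.304. Given the 4 source genes r was -0.287 and -0.335, and without mouse DO283 the with-Y value was -0.287. The blocks of library numbers gave -0.48 to 0.013, so that the relation was not seen in every block, and those of mouse numbers -0.344 to -0.231. Rarb and Cyp26b1, a receptor and the enzyme that clears its ligand, rose together at 0.182 (p = 0.00446) and 0.29 (p = 2e-05), and given the source genes at 0.175 and 0.347. Aldh1a1 and Cyp26b1, the enzymes that make and clear retinoic acid, had r of 0.193 (p = 0.00247) and 0.211 (p = 0.00141). The last pair, Aldh1a3 with Rdh10, had -0.128 and -0.137, and without mouse DO283 the with-Y value was -0.055 (permutation p = 0.399).

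The 3 Aldh1a genes did not move as 1 unit. Aldh1a1 and Aldh1a3 had an r of -0.067 (p = 0.304) in with-Y and 0.381 (p = 1e-05) in without-Y libraries, where all libraries gave 0.49. Aldh1a1 and Aldh1a2 had 0.09 and 0.355, and Aldh1a2 with Aldh1a3 had 0.276 and 0.066. Spearman's rho of Aldh1a1 with Aldh1a2 in without-Y libraries was 0.266 (permutation p = 5e-05). Without the 2 libraries farthest from the median of Aldh1a2, r there was 0.274. In without-Y libraries Rarb ran opposite to Aldh1a1 (-0.347) and to Aldh1a2 (-0.389), where with-Y libraries gave -0.02 (p = 0.761) and 0.111 (p = 0.0827).

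**Figure D5:**
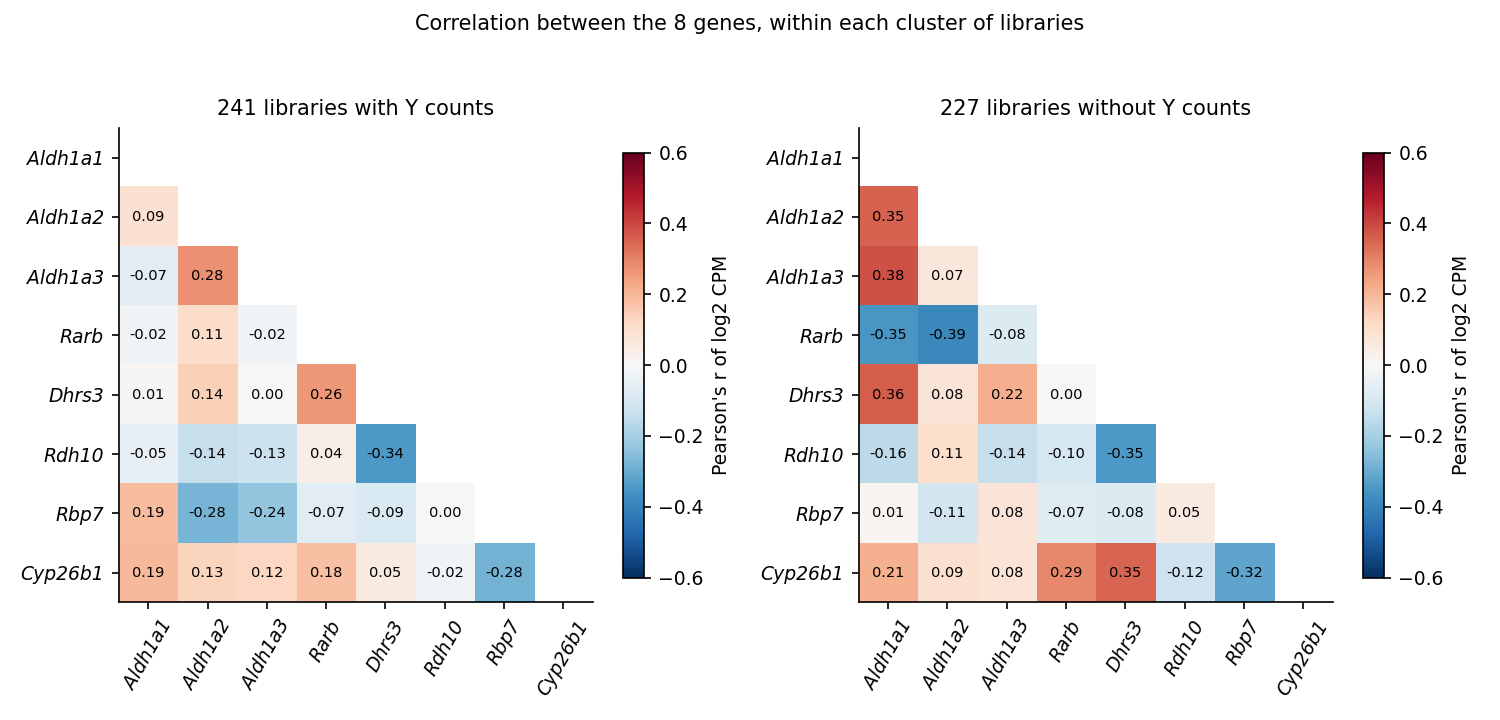
Pearson's r of log2 CPM for the 28 pairs of the 8 genes in with-Y and without-Y libraries. Dhrs3 with Rdh10 is at -0.343 and -0.346, while Aldh1a1 with Aldh1a3 is at -0.067 and 0.381.

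The rest of the pathway was taken from a list of 46 genes of retinoid uptake, storage, oxidation, binding and signalling, of which 43 were in the table and 40 were tested. With Adipoq, 19 of the 40 rose and 11 fell, beside the 33.3% and 35.7% of all genes given above. Those that rose included Rbp4, the retinol carrier of plasma, Retsat and Lipe, the hormone-sensitive lipase, which also cleaves retinyl esters, while the largest slope was that of Ces1d (0.65 ± 0.040, adjusted p = 6.649e-45 in edgeR), a carboxylesterase that hydrolyses triglycerides. Stra6 (-0.55 ± 0.11, adjusted p = 3.091e-06 in edgeR), the receptor that takes up retinol from Rbp4, and its paralogue Stra6l (-0.55 ± 0.089) fell. With Cdh5, 8 rose and 20 fell, led by Rarres2 (0.29 ± 0.030), which encodes chemerin, and by Stra6 (-0.52) and Lrat (-0.51 ± 0.065), the enzyme that esterifies retinol. Stra6 and Lrat were low, with medians of 0.166 and 0.321 CPM. The highest Stra6 (10.89 CPM) was in mouse DO283 and the highest Lrat (27.11 CPM) in mouse DO069, followed by DO032. The slopes of Stra6 and Lrat are given with these libraries included, and those without them are not given here. With Pdgfra, 6 rose and 19 fell, among them Bco1 (-0.40 ± 0.088), which cleaves beta-carotene. With Upk3b, 3 rose and 6 fell, with Dhrs9 (0.23 ± 0.048) highest and Rdh16 (-0.51 ± 0.082) lowest.

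Sample titles number the mice and the libraries, and both numbers were tested together as an order of the collection. With mouse number, 11.7% of genes rose and 12.1% fell in the edgeR test, and of the members Aldh1a3 rose by 0.10 ± 0.026 log2 units per 100 mice (adjusted p = 0.003295), Dhrs3 rose by 0.03 ± 0.0090 (adjusted p = 0.01907) and Rbp7 fell by 0.05 ± 0.020 (adjusted p = 0.04703). With the Xist and Y-linked terms added the adjusted p of these 3 were 0.823, 0.578 and 0.0875. With library number, 0.267% of all genes were called in either direction and no member was, the lowest adjusted p among the members being 0.6415. At an unadjusted p under 0.05, 0 of the 8 members passed with edgeR and 0 with limma. Of all 18380 genes, 1667 passed this with edgeR and 1014 with limma.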

How the data were processed

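RNA-seq of 468 adipose libraries was used, 1 per mouse; 241 held counts of Y chromosome genes (with-Y) and 227 held none (without-Y). The authors deposited expected counts (EMASE by GBRS, reads aligned to a transcriptome of the 8 founder strains, GRCm38), after removal of genes with low reads, and log2-scale values from the variance stabilising transformation of DESeq2, which served as an alternative scale. The versions of EMASE and GBRS are not stated by the sources. The counts were rounded, normalised by TMM and fitted with the quasi-likelihood test of edgeR 4.0.16 (10 counts in at least 50% of libraries, adjusted p under 0.05); limma 3.58.1 and DESeq2 1.42.0 were alternatives. Log2 CPM used a prior count of 2. Scripts were tested on simulated data, in which 74 of 100 genes with a slope of 0.25 on Upk3b and 50 of 100 with a slope of 0.1 were recovered among 18380 genes, with 6 false calls.

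Named genes were the 8 members, the 5 genes nearest to each, and the other retinoid genes with the largest called slopes per source gene; Rbp4, Retsat and Lipe were chosen after their values were seen. The members and lists were chosen with earlier results of these data known. The list of seminal vesicle and prostate genes, the removal of mouse DO283 and the within-set searches for near genes were added after seeing the data. Sex, generation and wave, covariates of the study, are not in the labels used here. P-values measure the spread between mice, each with 1 library.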

Additional observations from a re-analysis of the deposited data

How the results depend on the processing

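The closing limits concern the split of the libraries by Y chromosome counts, the library of mouse DO283, and the collinearity of source genes. The lowest count of a member was 91, and the call of Rarb with Pdgfra was lost without the libraries of lowest depth (adjusted p = 0.2739 in edgeR). Causes of the changes below were not tested. No paired analysis was possible because each mouse gave 1 library and no replicate numbers link them.

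A value was counted as reversed where its sign changed and it passed the threshold before or after the change; sign changes of values past it in neither case are not listed. Of the member slopes over all alternatives, 88.4% neither crossed the threshold nor reversed, 34 passed it anew, 12 lost it and 4 reversed. For r, 79.3% with source genes and 80.3% between members did neither, 29 and 14 passed it anew, 40 and 67 lost it, and 37 and 24 reversed.

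With each source gene modelled alone, Upk3b called 4 members, 26 other retinoid genes and 62.04% of all genes (against 2, 9 and 25.87%). Pdgfra then called 4 members and 52.22% of all genes (against 1 and 52.04%), and the Pdgfra slope of Aldh1a3 was -0.11. With marker lists in place of single genes, Upk3b called 6 members, 22 other retinoid genes and 50.54% of all genes. Pdgfra called 5 members and 61.82% of all genes with these lists, and the slopes of Rdh10 with Upk3b and of Dhrs3 with Adipoq were 0.048 and 0.0047. There r of Aldh1a1 with Upk3b was 0.222 and with Pdgfra 0.157, that of Aldh1a3 and of Dhrs3 with Pdgfra 0.226 and 0.224, and that of Rarb with Adipoq 0.12. With Xist and Y-linked terms, Pdgfra called 3 members and 54.67% of all genes, and Upk3b called 16 other retinoid genes and 32.96% of all genes. With these terms mouse number called 1 member (Aldh1a1) and 12.46% of all genes (against 3 and 23.74%), and the slope of Aldh1a1 with Adipoq was 0.033. With the source genes in the model, mouse number called 0 members in edgeR (3 at an unadjusted p under 0.05) and 11.72% of all genes, and library number 0.1088% (against 0.2666%). Without a filter, library number called 0.6083% of all genes and 1 other retinoid gene (against 0). By limma, library number called 0 genes (1014 at an unadjusted p under 0.05) and Pdgfra 0 members (1 unadjusted) beside 48.07% of all genes. Without libraries holding transcripts of other tissues Pdgfra called 2 members and 52.14% of all genes. Without those of lowest depth it called 0 members in edgeR (0 unadjusted) and 48.29% of all genes.

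Of the correlations over all libraries, those that reversed by this rule in with-Y libraries were Aldh1a1 with Upk3b (0.246), Adipoq (0.271) and Aldh1a3 (-0.067), Aldh1a3 with Pdgfra (0.081), Cdh5 (-0.078) and Dhrs3 (-0.001), Rarb with Pdgfra (0.082) and Aldh1a2 (0.111), Dhrs3 with Upk3b (0.071) and Pdgfra (0.201), and Rdh10 with Upk3b (-0.006). Without mouse DO283 the same set gave 0.238, 0.254 and -0.093 for Aldh1a1, with Dhrs3 (-0.043) and Rdh10 (0.031) added, 0.061, -0.145 and -0.059 for Aldh1a3, 0.078 and 0.109 for Rarb, and 0.047 and 0.167 for Dhrs3. In without-Y libraries they were Aldh1a1 with Upk3b (0.287), Pdgfra (0.254) and Adipoq (0.166), Aldh1a3 with Pdgfra (0.31), Adipoq (0.19) and Rbp7 (0.077), Dhrs3 with Adipoq (0.25) and Rbp7 with Pdgfra (0.064).

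The highest of 5 blocks of library numbers reversed Pdgfra with Aldh1a1 (0.079), Rarb (0.069), Dhrs3 (0.05) and Rbp7 (0.022), Aldh1a3 with Rarb (0.173) and Rbp7 (0.001), and Rbp7 with Cyp26b1 (0.013), and the lowest reversed Aldh1a2 with Aldh1a3 (-0.002) and Dhrs3 (-0.166). By mouse number the highest block reversed Pdgfra with Aldh1a1 (0.062), Aldh1a3 (0.064) and Rarb (0.139), Aldh1a2 with Cdh5 (0.03), Aldh1a3 with Rarb (0.03) and Rbp7 (0.012), and Dhrs3 with Rbp7 (0.127), and the lowest reversed Aldh1a2 with Pdgfra (-0.067) and Dhrs3 (-0.095), and Rdh10 with Upk3b (-0.034). Given the source genes, Aldh1a3 with Rbp7 was 0.03 over all libraries and 0.008 in with-Y ones, where Aldh1a1 with Dhrs3 was -0.027 and Aldh1a2 with Rarb 0.049. In without-Y ones Aldh1a3 was at 0.01 with Rarb and at 0.01 with Rbp7.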

Other observations

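Within each set of libraries the genes nearest to Aldh1a2 by r were different ones. In with-Y libraries they were Ryr1 (r = 0.573), the calcium release channel of skeletal muscle, Ltb4r1 (0.553), a leukotriene receptor, Ccr2 (0.536), a chemokine receptor of monocytes, Slc2a6 (0.528) and Map4k1 (0.527). In without-Y libraries they included Ptk7 (0.694), Aebp1 (0.679), Arhgap44 (0.676) and Myrf (0.669). No gene was among the first 5 in both sets, which was also so for Aldh1a3, Rarb, Dhrs3, Rdh10 and Cyp26b1. How often this holds for other genes was not computed, so it is not read as a trait of the members. The r of Ptk7 with Aldh1a2 was 0.035 in with-Y libraries, and those of Ccr2 and Ryr1 were 0.356 and 0.12 in without-Y libraries. Whether these values differ between the sets was not tested. Ryr1 had 3.767 ± 18.92 CPM over all libraries, and the part of libraries with skeletal muscle transcripts in its r was not tested.

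For Rarb the nearest genes in without-Y libraries were Itpr2 (0.733), an intracellular calcium channel, Clic5 (0.73), Mcur1 (0.719), Armc1 (0.714) and Uqcc1 (0.711), an assembly factor of the mitochondrial respiratory chain. In with-Y libraries the highest r of Rarb was 0.444, with Kpna4. For Aldh1a1, Prrg3 was among the first 5 in both sets, with r of 0.499 in with-Y and 0.708 in without-Y libraries. For Rbp7 the genes 4931406P16Rik and Gpihbp1 were among the first 5 in both sets.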
